A study of Mus musculus with 66 samples.

Results

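Listed islands of H3K9me3 and H3K36me3 were described at 7 receptor genes of fast inhibition in the prefrontal cortex (PFC), the GABA-A receptor subunit genes Gabra2, Gabra5, Gabrb1, Gabrb2, Gabrg1 and Gabrg3 and the glycine receptor subunit gene Glra3. They are 7 of 21911 protein-coding genes of the GENCODE vM21 annotation, and were chosen by name together with a window, the gene body plus 50 kb on either side, here called the locus. An island is a stretch in which the peak caller SICER found clustered ChIP reads, and each library's list gives its position, its ChIP reads and its input reads. PFC tissue came from adolescent DBA/2J mice of both sexes given ethanol at 4 g/kg by gavage as a 25% w/v solution, or water by gavage, on an intermittent schedule between postnatal days 29 and 42. At 24 h past the final gavage, tissue was collected and pooled from 3 mice at a time, giving 6 ethanol and 5 water pools of males and the same of females. Each of the 22 pools has an H3K9me3 library, an H3K36me3 library and 1 input library that serves both marks, 66 samples in all. No transgene or deletion is named for any group, and since mice were pooled, differences between the mice of a pool were not measured.

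GABA-A receptors are chloride channels assembled from alpha, beta and gamma or related subunits, and the subunit mix sets where in the neuron a receptor sits, how it responds to GABA and which drugs act on it. They are among the best-known targets of ethanol in the brain. Glycine receptors are closely related chloride channels with their main role in spinal cord and brainstem. H3K9me3 is a histone mark of heterochromatin, enriched over silenced repeats and retroelements. H3K36me3 is laid down behind elongating RNA polymerase and is typically found across the bodies of transcribed genes. Both were measured in bulk tissue, so fewer cells carrying a mark and less of the mark per cell cannot be told apart.

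The 7 genes lie on 4 chromosomes, and 3 of them form a cluster on chromosome 5. In GRCm38 coordinates, Gabrg1 lies at chr5:70751047-70842617 on the minus strand, Gabra2 at chr5:70957597-71095849 on the minus strand and Gabrb1 at chr5:71658113-72149037 on the plus strand. Gabrg3 (chr7:56716465-57387188) and Gabra5 (chr7:57407672-57510059) are neighbours on the minus strand of chromosome 7, and their loci overlap by 79.5 kb, so islands in that stretch count for both. Gabrb2 lies at chr11:42419757-42629028 and Glra3 at chr8:55940460-56130070, both on the plus strand. With the flanks, the loci span from 192 kb for Gabrg1 to 771 kb for Gabrg3.

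Libraries differed in depth and in how many islands passed a false discovery rate of 0.01. The H3K9me3 libraries held 5.73 to 14.2 M ChIP reads in listed islands, and those of H3K36me3 held 1.70 to 4.79 M. Islands at that rate made up 31.0 to 88.1% of the H3K9me3 lists and 7.76 to 73.2% of the H3K36me3 lists. The H3K9me3 libraries of male ethanol pool 4 (most reads) and female water pool 2 (31.0%) and the H3K36me3 libraries of male ethanol pools 4 (fewest reads) and 6 (7.76%) stood apart. No 2 libraries held identical values. H3K36me3 covered a median of 0.871% of the gene body over 8 neuronal markers, all of them with an island in some library, against 0.479% over all genes and 0 over 10 genes of other organs, of which 3 had an island and the highest reached 9.98%. It covered a median of 0 over 6 oligodendrocyte and 5 interneuron markers, of which 2 each had any island. The median was 0.461% over 5 astrocyte markers, 4 of them with an island, and 0.663% over 3 microglia markers, all with one. The mean level over the neuronal markers varied from 0.0891 to 4.43% between libraries, with a median of 0.712%, against 2.51% over all genes. With islands at a false discovery rate of at most 0.01, the neuronal markers were not above all genes. The medians over genes were then 0.259% and 0.264%.

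Islands that recur between pools sat in introns of the members or in their flanks, and none touched an exon of a member. A region is defined here as a stretch of 200 bp or more that lay within an island in 11 or more of the 22 libraries of a mark. H3K9me3 had 32 such regions over the 7 loci, 17 of them present in all 22 libraries. Of these, 23 lay inside a gene body, 3 upstream and 6 downstream. H3K36me3 had 20 regions, 7 of them in all 22 libraries, with 13 in gene bodies, 2 upstream and 5 downstream. For each mark, 1 region lies 16 kb inside Gabrg3 and also within the flank of Gabra5, and it stands among the downstream ones in these counts. By gene, H3K9me3 regions numbered 12 at Glra3, 8 at Gabrg3, 6 at Gabrb1, 3 at Gabrg1, 2 at Gabra2, 2 at Gabra5 and 0 at Gabrb2. For H3K36me3 the numbers were 7 at Glra3, 6 at Gabrg3, 4 at Gabrb1, 3 at Gabrg1, 1 at Gabra5 and 0 at both Gabra2 and Gabrb2.

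**Figure D1:**
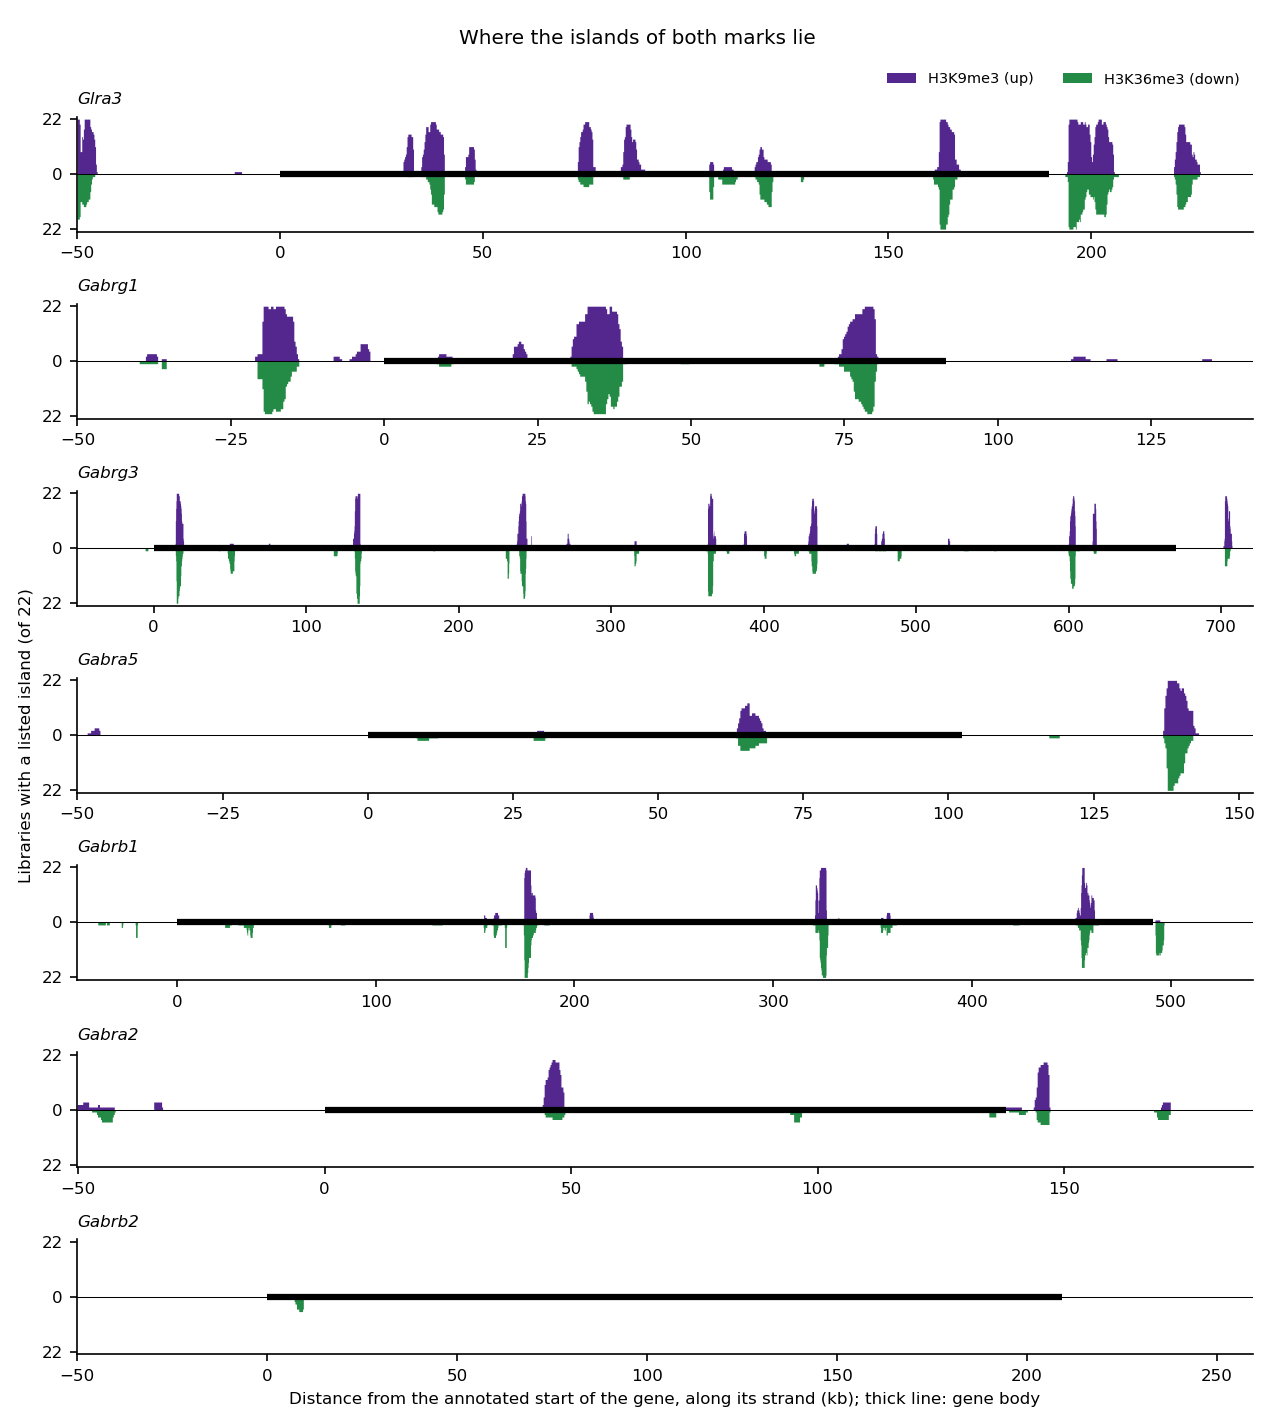
Number of the 22 libraries with a listed island (vertical axis, H3K9me3 upward and H3K36me3 downward) against the distance in kb from each gene's annotated start, one panel per gene with the gene body as a thick line. Part of the narrow positions recur for both marks in most loci, while the Gabrb2 locus holds islands of H3K36me3 in 7 libraries and of H3K9me3 in 1.

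The marked regions of genes on different chromosomes carried stretches of the same repeat sequence. To show this, the 300 bases at the centre of the H3K9me3 region with the most reads per kb are printed for 4 loci in the GRCm38.p6 sequence, plus strand, with the longest exact stretch shared with another of these windows in capitals. The Gabrg3 stretch of 42 bases occurs in the Gabrb1 window on the opposite strand, the Gabrb1 stretch of 48 bases occurs in the Gabra5 window on the same strand, and the Gabra5 and Glra3 stretches are the same 62 bases on opposite strands.
Gabrg3, chr7:57253751-57254050: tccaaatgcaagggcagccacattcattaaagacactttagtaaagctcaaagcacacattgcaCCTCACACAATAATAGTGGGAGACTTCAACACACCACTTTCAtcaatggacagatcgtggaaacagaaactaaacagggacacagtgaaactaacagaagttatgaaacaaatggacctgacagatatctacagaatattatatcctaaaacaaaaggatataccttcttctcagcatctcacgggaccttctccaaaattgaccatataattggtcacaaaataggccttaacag
Gabrb1, chr5:71982751-71983050: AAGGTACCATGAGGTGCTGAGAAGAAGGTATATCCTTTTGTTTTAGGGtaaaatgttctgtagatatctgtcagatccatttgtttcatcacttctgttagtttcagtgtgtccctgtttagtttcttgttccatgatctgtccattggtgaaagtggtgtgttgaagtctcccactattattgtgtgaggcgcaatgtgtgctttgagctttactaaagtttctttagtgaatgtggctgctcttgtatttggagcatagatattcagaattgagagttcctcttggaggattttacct
Gabra5, chr7:57370851-57371150: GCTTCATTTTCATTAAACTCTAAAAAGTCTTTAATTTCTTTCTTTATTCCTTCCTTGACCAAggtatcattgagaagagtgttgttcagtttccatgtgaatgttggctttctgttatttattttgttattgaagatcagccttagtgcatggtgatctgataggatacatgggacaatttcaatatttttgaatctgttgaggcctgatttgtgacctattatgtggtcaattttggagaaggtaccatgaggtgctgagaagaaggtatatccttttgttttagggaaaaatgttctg
Glra3, chr8:56104851-56105150: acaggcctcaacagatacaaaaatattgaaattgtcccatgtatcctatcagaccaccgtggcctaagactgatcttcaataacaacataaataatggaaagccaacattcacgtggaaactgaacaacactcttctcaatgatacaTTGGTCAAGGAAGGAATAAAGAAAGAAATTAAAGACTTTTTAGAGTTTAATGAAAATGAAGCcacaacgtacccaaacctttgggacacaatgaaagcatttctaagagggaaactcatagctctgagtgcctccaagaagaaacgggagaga
The Gabrg3 window lies in an intron, 133 kb from the annotated start, and its region held 6.10 ± 0.955 ChIP reads per kb per M reads in islands (SD, n = 22), more than any other member region of H3K9me3. The Gabrb1 window is intronic at 325 kb (5.32 ± 0.573), and the Glra3 window is intronic at 165 kb (5.19 ± 0.889). The Gabra5 window lies in the region shared with Gabrg3 (4.85 ± 0.804). The corresponding windows of Gabrg1, upstream of the gene, and Gabra2, downstream of it, shared at most 9 bases with any of the others and are not printed.

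Sequence sharing was general among the regions. Every base was scored by whether it lies in an exact stretch of 20 bases, on either strand, that also occurs in a member region of the same mark on another chromosome. In H3K9me3 regions the median share of such bases was 93.4% (range 20.1 to 99.9), and it was 50% or more in 28 of 32 regions. In the remainder of the 7 loci the share was 2.90 to 6.74%. In H3K36me3 regions the median was 81.5% (0 to 100; 50% or more in 14 of 20), against 1.90 to 4.32% in the remainder. The lowest H3K36me3 values were 0 in a 0.6 kb region of Gabrg3 (chr7:57154801-57155400) and 1.5% in a region downstream of Gabrb1 (chr5:72150401-72153600). Bases soft-masked as repeats in the reference made up a median of 100% of H3K9me3 regions (81.4 to 100) and 99.5% of H3K36me3 regions (38.3 to 100), against 97.2% and 98.3% over all regions of the genome and 24.6 to 43.1% of the member loci as a whole. The reads came from DBA/2J mice and were aligned to the C57BL/6J-derived reference, for H3K9me3 with only reads mapping to a single location kept, and the part of either in these values was not tested.

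**Figure D2:**
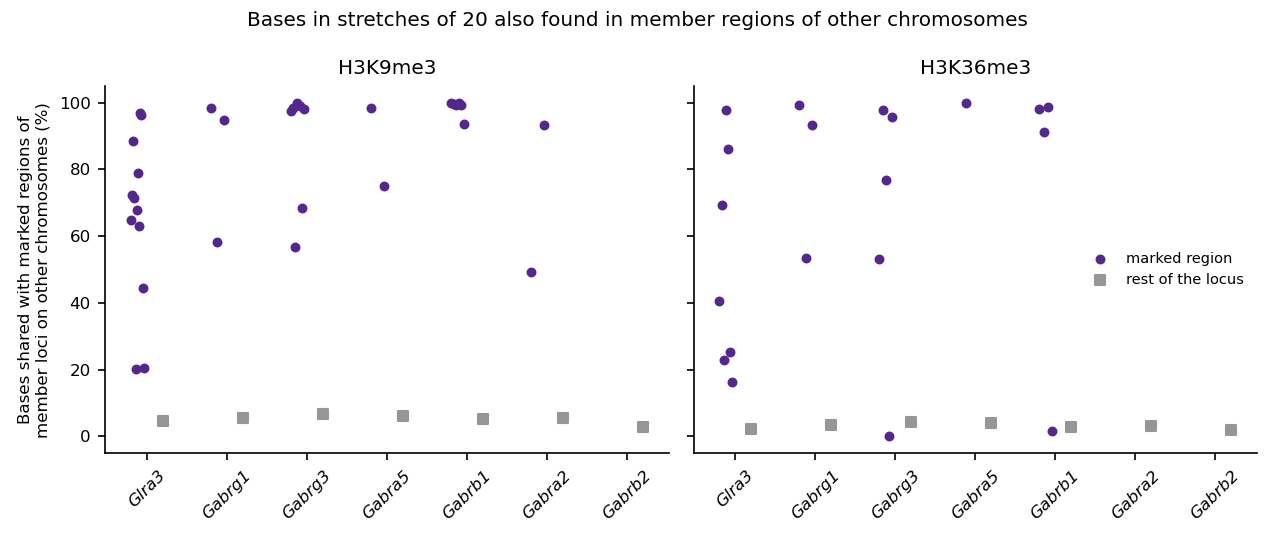
Percent of bases (vertical axis) lying in 20-base stretches that also occur in member regions on another chromosome, for each marked region (circles) and for the rest of each locus (grey squares), by gene and mark. Nearly all circles of Gabrb1, Gabrg1 and Gabrg3 lie far above the squares, which stay between 1.90 and 6.74%.

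The levels differed widely between genes, and the order was led by Glra3 and Gabrg1 for both marks. Glra3 encodes the alpha 3 subunit of the glycine receptor. Listed H3K9me3 islands covered 11.6% ± 2.05 of its locus (SD, n = 22, range 7.16 to 14.97), a value that 12.3% of all protein-coding loci reached. Gabrg1, which encodes the gamma 1 subunit found in glia and in subcortical neurons, had 9.45% ± 1.83 (6.06 to 12.7; 14.7% of loci). Gabrg3, for the gamma 3 subunit, had 3.83% ± 0.734, and Gabra5, for the alpha 5 subunit of extrasynaptic receptors, had 2.95% ± 1.09. Gabrb1 (beta 1 subunit) had 2.51% ± 0.586 and Gabra2 (alpha 2 subunit, abundant at the axon initial segment) 2.38% ± 1.16. Gabrb2, encoding the beta 2 subunit of the most common cortical receptor type, had no H3K9me3 island in 21 of 22 libraries. The mean over all loci was 4.70% and the median 0.680%, so 6 of the 7 loci lay above the median and 2 above the mean.

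Glra3 was above Gabrg1 in 19 of 22 libraries, with a mean difference of 2.16 ± 1.98 percentage points (SD), but with only the islands at a false discovery rate of at most 0.01 the order turned, with 8.07% for Gabrg1 and 7.99% for Glra3. Gabrg1 was above Gabrg3 in all 22 libraries, and Gabra2 above Gabrb2 in all 22. Gabrg3 was above Gabra5 in 17. The neighbours Gabra5 and Gabrb1, and Gabrb1 and Gabra2, did not separate, each being in that order in 13 of 22 libraries with mean differences of 0.440 ± 1.31 and 0.136 ± 1.09 points.

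For H3K36me3, listed islands covered 7.01% ± 1.88 of the Glra3 locus and 6.57% ± 1.33 of the Gabrg1 locus (SD, n = 22), against a median of 2.60% over all loci. These 2 loci were in this order in 16 libraries, and by reads per kb per M the order turned, with 0.539 for Gabrg1 and 0.530 for Glra3. Gabrb1 (2.83% ± 0.770) and Gabrg3 (2.77% ± 0.684) did not separate, the first being higher in 11 of 22 libraries. Gabra5 had 2.11% ± 1.03 and Gabra2 1.37% ± 1.06, with no island in 4 libraries for the latter. At a rate of at most 0.01 this order also turned, with 0.572% for Gabra2 and 0.472% for Gabra5. Gabrb2 had 0.165% ± 0.264, a value that 96.6% of all loci reached. Hence 4 of the 7 loci were above the median over all loci for H3K36me3, and Gabrb2 was lowest for both marks.

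Both loci varied between the pools of a group. For H3K9me3, islands covered 13.6, 11.4, 11.2, 12.3 and 10.8% of the Glra3 locus in male water pools, and 7.71, 13.2 and 14.97% as lowest, median and highest in male ethanol pools. In females the water pools had 12.3, 9.92, 12.6, 7.16 and 13.6%, and the ethanol pools 8.82, 11.03 and 12.1%. The treatment groups overlapped in both sexes. For Gabrg1 the male water pools had 9.5, 9.08, 10.02, 7.41 and 12.7%, and the male ethanol pools 7.41, 10.9 and 11.3%. The female water pools of Gabrg1 had 8.67, 6.89, 10.02, 6.06 and 10.1%, and the ethanol pools 7.31, 9.40 and 12.5%, again with overlap. For H3K36me3, Glra3 had 3.31, 8.61, 5.71, 8.47 and 7.71% in male water pools and 6.75 to 10.8% in male ethanol pools, with water pool 1 the lowest and the groups overlapping.

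**Figure D3:**
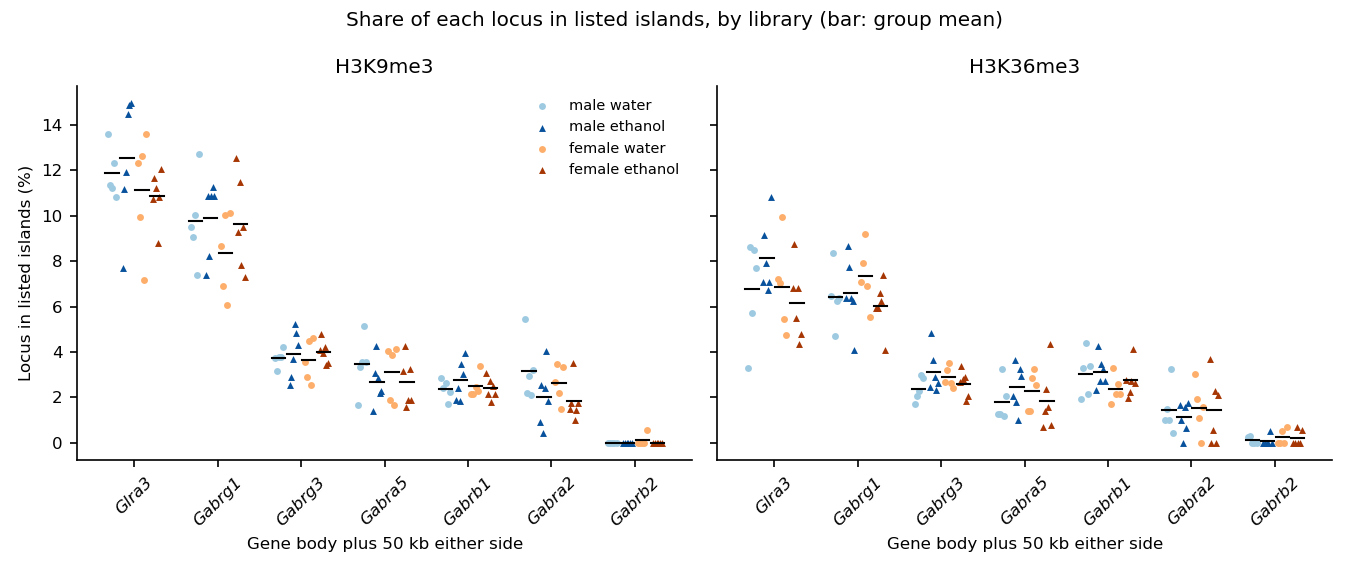
Percent of each locus in listed islands (vertical axis) in every library, by gene, sex and treatment, with H3K9me3 and H3K36me3 in separate panels and bars at the group means. Glra3 and Gabrg1 stand above the other loci in both marks, Gabrb2 is at or near 0, and the water and ethanol libraries overlap throughout.

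The position of islands relative to the gene body differed between members. H3K9me3 covered 12.97% of the Gabrg1 body and 6.24% of its flanks, and 3.00% of the Gabrb1 body and 0.1% of its flanks, with the body higher in 22 of 22 libraries for both genes. For Glra3 the flanks were higher in every library, with 16.1% against 9.23% in the body. Gabra2 (1.95% body, 2.96% flanks) and Gabra5 (1.87% and 4.05%) also had lower body than flank values, in all but 5 and 4 libraries. H3K36me3 was higher in the body at Gabrg1 (9.23% against 4.13%, 22 of 22 libraries) and Gabrg3 (3.05% against 0.864%, 21 of 22), and higher in the flanks at Glra3 (10.98% against 4.91%, 21 of 22). None of the 10 RefSeq promoters of the 7 genes, taken as 250 bases before to 50 bases after a start, overlapped a listed island of either mark in any library. Among 32851 promoters, 3.83% did so for H3K9me3 and 4.81% for H3K36me3.

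Enrichment over input was modest in these islands. Of 773 listed H3K9me3 islands over the member loci, 66.9% had a false discovery rate of at most 0.01, against 75.8% of all 1239421 listed islands, and their median fold over input was 1.42, against 1.53. The share was highest at Gabrb1 (79.7%) and lowest at Gabra2, where 17 of 50 islands reached it, apart from the single Gabrb2 island. The scaled ratio of ChIP to input reads was 1.53 ± 0.125 at Gabrb1 and 1.21 ± 0.134 at Gabra2 (SD, n = 22), the highest and lowest of the 6 loci with islands in every library. For H3K36me3, 33.4% of 589 member islands reached the same rate, against 40.9% of all, with a median fold of 1.22 against 1.28. The highest ratio was 2.24 ± 0.929 at Gabrb2, over the 7 libraries with an island there.

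Regions of the marks overlapped in part at the members, as they did genome-wide. Of the 32 H3K9me3 regions 18 overlapped an H3K36me3 region, and of the 20 H3K36me3 regions 17 overlapped an H3K9me3 region. Genome-wide the shares were 45.4% of 52559 H3K9me3 regions and 80.5% of 31085 H3K36me3 regions. The 3 H3K36me3 regions without an H3K9me3 region lay downstream of Gabrb1 and in introns of Gabrg3 and Glra3, and shared 1.5, 0 and 22.9% of their bases with other member regions. Both lists of a pool were called against the same input library, and the part of this in the overlap was not tested.

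Whether adolescent binge ethanol shifted either mark at these genes was tested with edgeR on the ChIP reads of listed islands summed over each locus, in males and females separately, as the study did. Values are log2 fold changes of ethanol over water, with counts in CPM, which is reads per M locus reads after TMM scaling, and loci at an unadjusted p of at most 0.05 (here: the unadjusted threshold) are counted beside p-values adjusted over all loci. A two-sided exact permutation test over the pools, on mean log2(CPM + 1), was added for every locus and region after the data were seen. For H3K9me3 loci, 0 of 6 members in males and 1 of 6 in females were at or under an exact permutation p of 0.05, beside 3.79% and 4.88% of all loci. For H3K36me3 loci the counts were 2 of 6 in males, beside 20.2%, and 0 of 6 in females, beside 3.4%. Those in males were Gabrg3 and Gabra5, whose loci overlap, so they are not independent. The p-values measure only the spread between pools of mice. No member reached an adjusted p of 0.05 in any comparison, as 0% of all loci and regions did in each comparison of treatments, 0.00489% of H3K36me3 loci in the interaction of treatment and sex, and 8.76% of H3K9me3 and 2.8% of H3K36me3 loci between the sexes. Without male ethanol pool 5, 376 H3K36me3 loci in males reached it, with 0 members among them (adjusted p = 0.141 for Gabrg3, edgeR). Gabrb2 did not pass the filter on low counts in either sex.

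Among the alpha subunit genes, Gabra2 had fewer H3K9me3 reads in listed islands after ethanol in both sexes. Stretches with no listed island in a library add no reads to its sum. In male water pools the Gabra2 locus had 35.7, 19.3, 23.6, 20.6 and 26.04 CPM, and in the male ethanol pools the lowest was 5.72, the median 14.6 and the highest 28.8. In female water pools the values were 20.6, 34.0, 16.9, 17.3 and 26.8 CPM, and in female ethanol pools 9.44, 14.5 and 22.8. Below the lowest water pool lay 4 of 6 ethanol pools in males and 5 of 6 in females, while ethanol pools 2 and 5 of the males and ethanol pool 3 of the females lay within the water values, so the groups overlapped. The islands behind these values covered 13, 5.2, 7.0, 5.0 and 7.6 kb in male water pools and 1.0 to 9.6 kb in male ethanol pools. Per kb of island, ChIP reads at Gabra2 were not lower after ethanol. Over both sexes they were 32.5 ± 3.78 in water (SD, n = 10) and 35.9 ± 7.23 in ethanol pools (n = 12), not scaled for depth.

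The log2 fold change of Gabra2 was -0.66 ± 0.27 (SE) in females (adjusted p = 1.00, edgeR; exact permutation p = 0.0433) and -0.67 ± 0.33 in males (adjusted p = 1.00, edgeR; exact permutation p = 0.0563). Thus 1 of 6 tested members passed the unadjusted threshold in females, where 3.48% of all loci did (1.19% lower), and 0 of 6 in males, where 2.75% did. With both sexes in 1 fit the change was -0.66 ± 0.22 (adjusted p = 0.995, edgeR), and 1 of 6 members passed, beside 3.52% of loci. Gabra2 stayed past the unadjusted threshold in that fit when each library was left out in turn, and lost it with islands at a false discovery rate of at most 0.01 (-0.39) and as a ratio of ChIP to input reads (-0.04). The interaction of treatment and sex was 0.01 ± 0.44 (adjusted p = 1.00, edgeR), and 0 of 6 members passed in it, beside 5.45% of loci.

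Input reads in the same islands moved with the ChIP reads at Gabra2. Their log2 fold change was -0.68 ± 0.26 in females, past the unadjusted threshold, and -0.61 ± 0.32 in males, not past it (edgeR). The log2 ratio of ChIP to input reads differed by 0.03 ± 0.09 in females (adjusted p = 0.991, limma) and by -0.10 ± 0.10 in males (adjusted p = 0.956, limma). The Gabra2 locus held 2.70 ± 0.949 listed H3K9me3 islands of 6.92 ± 2.61 kb in all per water pool (SD, n = 10) and 1.92 ± 0.793 of 4.60 ± 2.51 kb per ethanol pool (n = 12). The female value lost the unadjusted threshold without water pool 2 (-0.48), the library with the lowest share of islands at the false discovery rate, and without water pool 5 (-0.60), ethanol pool 1 (-0.58) or ethanol pool 4 (-0.56). The male value passed it without ethanol pool 5 (-0.93).

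Gabra5 had log2 fold changes of -0.20 ± 0.23 in males and -0.22 ± 0.20 in females for H3K9me3, within the spread between pools. Of the beta subunit genes, Gabrb1 had 0.18 ± 0.11 in males and -0.12 ± 0.13 in females, where the ethanol pools held 47.4 to 71.1 CPM and the water pools 54.1 to 74.2. Of the gamma subunit genes, Gabrg1 had 0.03 ± 0.09 and 0.10 ± 0.10, and Gabrg3 0.09 ± 0.09 and 0.07 ± 0.08. Glra3 had 0.08 ± 0.09 in males and -0.10 ± 0.09 in females. In no member locus did the H3K9me3 values of water and ethanol pools separate fully, as 0.314% of all loci in males and 0.32% in females did.

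**Figure D4:**
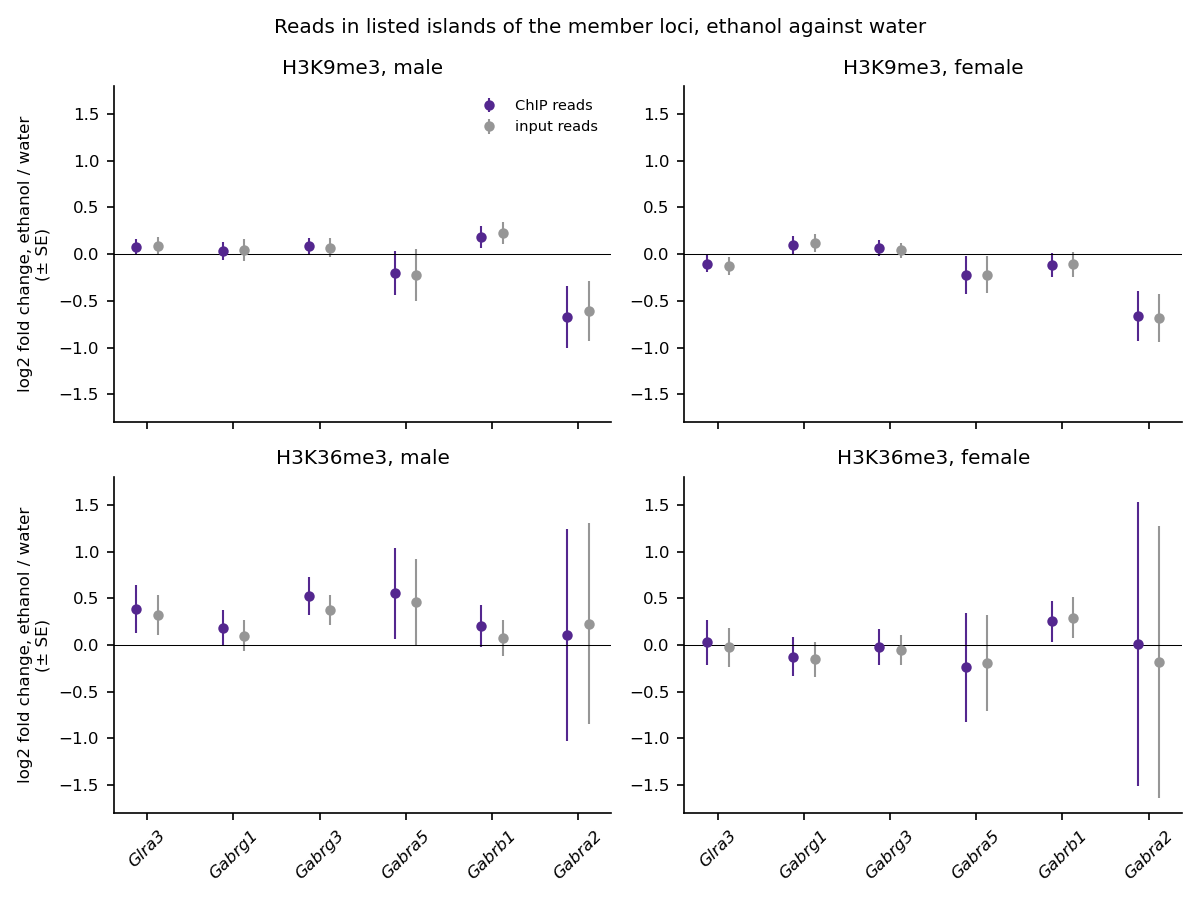
Log2 fold change of ethanol over water with its standard error (vertical axis) for ChIP reads (purple) and input reads (grey) in the listed islands of 6 member loci, by mark and sex. The Gabra2 values of H3K9me3 lie near -0.66 in both sexes, with the input reads beside them, and Gabrg3 lies at 0.53 for H3K36me3 in males.

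For H3K36me3 in males, 1 of 6 tested members passed the unadjusted threshold, Gabrg3, where 4.82% of all loci passed (3.65% higher). The Gabrg3 locus had 64.2, 81.1, 81.4, 112.6 and 89.0 CPM in male water pools, and 76.7 at the lowest, 123.9 at the median and 153.8 at the highest in male ethanol pools. All but 1 of the ethanol pools were above every water pool, and ethanol pool 5 lay among the water pools. The log2 fold change was 0.53 ± 0.20 (adjusted p = 0.913, edgeR; exact permutation p = 0.0476). Input reads rose by 0.38 ± 0.16 there, past the unadjusted threshold, and the log2 ratio of ChIP to input differed by 0.11 ± 0.15 (adjusted p = 0.792, limma).

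The call at Gabrg3 was lost without water pool 1 (0.44), ethanol pool 2 (0.40) or ethanol pool 4 (0.40), the last being the library with the fewest reads, and held without ethanol pool 6 (0.54). With DESeq2 the change was 0.35 and the call was lost. The other members had 0.19 ± 0.19 at Gabrg1, 0.20 ± 0.23 at Gabrb1, 0.39 ± 0.26 at Glra3 and 0.55 ± 0.49 at Gabra5, which was not past the threshold by edgeR but had an exact permutation p = 0.0476. The Gabra5 locus had 15.3, 16.2, 25.3, 14.01 and 16.1 CPM in water pools and 16.9 to 35.5 CPM in ethanol pools, and water pool 3 alone lay among the ethanol pools. This locus overlaps that of Gabrg3, so islands in the shared stretch enter the values of both. Gabra2 had 0.11 ± 1.13, with no island in ethanol pool 3. The median over the 6 members was 0.30, against -0.39 over all loci, and all 6 were above 0, as 35.8% of all loci were. The input reads of the same islands had a median of 0.28, against -0.34, also with 6 of 6 above 0. As a ratio of ChIP to input reads the medians were 0.05 and -0.06. With DESeq2 size factors they were 0.13 and -0.54, with 5 of 6 members above 0, and without the low-count filter 0.07 and -0.56.

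In females 0 of 6 members passed for H3K36me3, beside 0.812% of loci, and Gabrg3 had -0.02 ± 0.19, with 68.1 to 123.6 CPM in water and 82.1 to 127.2 in ethanol pools. The sexes were not shown to differ at Gabrg3, with an interaction of -0.54 ± 0.29 (adjusted p = 1.00, edgeR), and 0 of 7 members passed in it, beside 3.78% of loci. With both sexes in 1 fit 0 of 7 members passed, beside 4.17% of loci. No member locus separated fully between treatments in either sex, as 2.17% of loci in males and 0.23% in females did. Between females and males, 0 of 6 members passed the unadjusted threshold for H3K9me3, beside 14.4% of loci, and 0 of 7 for H3K36me3, beside 4.31%.

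At Gabrb2 the locus reads were too few to pass the low-count filter within a sex. The presence of a Gabrb2 island of H3K36me3 was tested in females by Fisher's exact test. It was found in 2 of 6 ethanol and 2 of 5 water pools, and the unadjusted threshold was not passed. Its H3K36me3 islands measured 0.8 and 1.0 kb in male water pools 1 and 2, 1.6 kb in male ethanol pool 5, 1.6 and 2.2 kb in female water pools 3 and 5, and 2.2 and 1.8 kb in female ethanol pools 3 and 6. All other pools had none, so islands appeared in 4 of 10 water and 3 of 12 ethanol pools. Of these 7 islands, 6 lay about 8 kb inside the gene, between positions 42427001 and 42429200 of chromosome 11. The only H3K9me3 island (chr11:42427201-42429000, female water pool 5, 55 ChIP and 42 input reads) lay at the same place.

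At the scale of single regions, those with an island in all 11 libraries of a sex were tested. CPM of a region are reads per M reads in the tested regions of that mark and sex, after TMM scaling. They are therefore not comparable with the CPM of loci. Input reads were compared for loci only, not for single regions. For H3K9me3 in males, 1 of 19 member regions passed the unadjusted threshold, beside 2.91% of all regions, and in females 2 of 20, beside 3.99%. By the exact test 2 of 19 did in males, beside 4.17%, and 2 of 20 in females, beside 4.94%. With islands at a false discovery rate of at most 0.01, 6 member regions in males and 4 in females could be tested, and 0 passed. The intronic Gabrb1 region chr5:71832801-71836400, 176 kb into the gene, was called in both sexes in opposite directions. In males it had 34.8, 26.1, 30.1, 29.6 and 30.8 CPM in water pools, and 16.8, 23.9 and 28.8 as lowest, median and highest of the ethanol pools. In females it had 24.9, 27.6, 23.1, 18.99 and 24.5 CPM in water pools and 23.3, 30.0 and 32.0 in ethanol pools. The groups overlapped in both sexes, with the ethanol pools mostly on the low side in males and on the high side in females.

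The change at this Gabrb1 region was -0.31 ± 0.13 in males (adjusted p = 1.00, edgeR; exact permutation p = 0.0260) and 0.27 ± 0.12 in females (adjusted p = 1.00, edgeR; exact permutation p = 0.0346). The male call was lost without water pool 1 (-0.26), and the female call without water pool 1, 3, 4 or 5 or ethanol pool 1, 2, 4 or 5 (0.20 to 0.28). A test of the difference between the sexes, added after these values were seen, gave 0.58 ± 0.18 (adjusted p = 1.00, edgeR), and this was 1 of 17 member regions to pass, beside 3.62% of all regions. The H3K36me3 region at the same place had 0.30 in males and -0.21 in females, an interaction of -0.51 ± 0.23 (adjusted p = 0.819, edgeR). It was 1 of 7 member regions to pass, beside 5.92%.

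The second H3K9me3 region called in females was in an intron of Gabrg3, chr7:57020801-57024000, 365 kb from the start. Water pools had 14.6, 13.7, 23.9, 16.7 and 16.7 CPM, and the ethanol pools 20.98, 22.6 and 25.8 as lowest, median and highest. All but water pool 3 lay below every ethanol pool, and the groups overlapped because of that pool. The change was 0.42 ± 0.14 (adjusted p = 1.00, edgeR; exact permutation p = 0.0260), and it stayed past the unadjusted threshold with any single pool left out. With islands at a false discovery rate of at most 0.01 this place could not be tested, as not every female pool had an island there. The female island at this place (chr7:57018601-57024200) was then present in 5 of 6 ethanol and 3 of 5 water pools. In males the region had 16.4 to 24.4 CPM in water and 13.4 to 23.4 in ethanol pools.

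For H3K36me3, 1 of 7 member regions passed in males, beside 5.71% of regions, and 0 of 10 in females, beside 3.6%. The exact test gave 1 of 7, beside 6.53%, and 0 of 10, beside 4.77%, and no member region could be tested with islands at a rate of at most 0.01. The region was intronic in Gabrb1, chr5:71981401-71984800, 325 kb into the gene, and it contains the Gabrb1 window printed above. Male water pools had 35.9, 49.9, 49.5, 44.0 and 54.6 CPM, and male ethanol pools had 57.7, 62.0 and 81.9 as lowest, median and highest. Every ethanol pool was above every water pool, as in 0.597% of all regions. Ethanol pools 4 and 1 held the highest values (81.9 and 74.4 CPM) and the fewest reads of their group (1.70 and 2.39 M). Water pool 1, with the fewest reads of its group (2.57 M), held the lowest value (35.9 CPM). The input reads of this region were not compared, and the part of depth in these values was not tested. The change was 0.47 ± 0.14 (adjusted p = 0.845, edgeR; exact permutation p = 0.00433, the smallest that 6 against 5 pools can give), and it stayed past the unadjusted threshold with any single pool left out. In females the ethanol pools spanned 43.3 to 81.6 CPM and the water pools 54.8 to 70.3, with a change of 0.05. The interaction there was -0.41, not past the unadjusted threshold. The H3K9me3 region at the same place had 0.20 in males, not past that threshold by edgeR, with an exact permutation p = 0.0173.

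**Figure D5:**
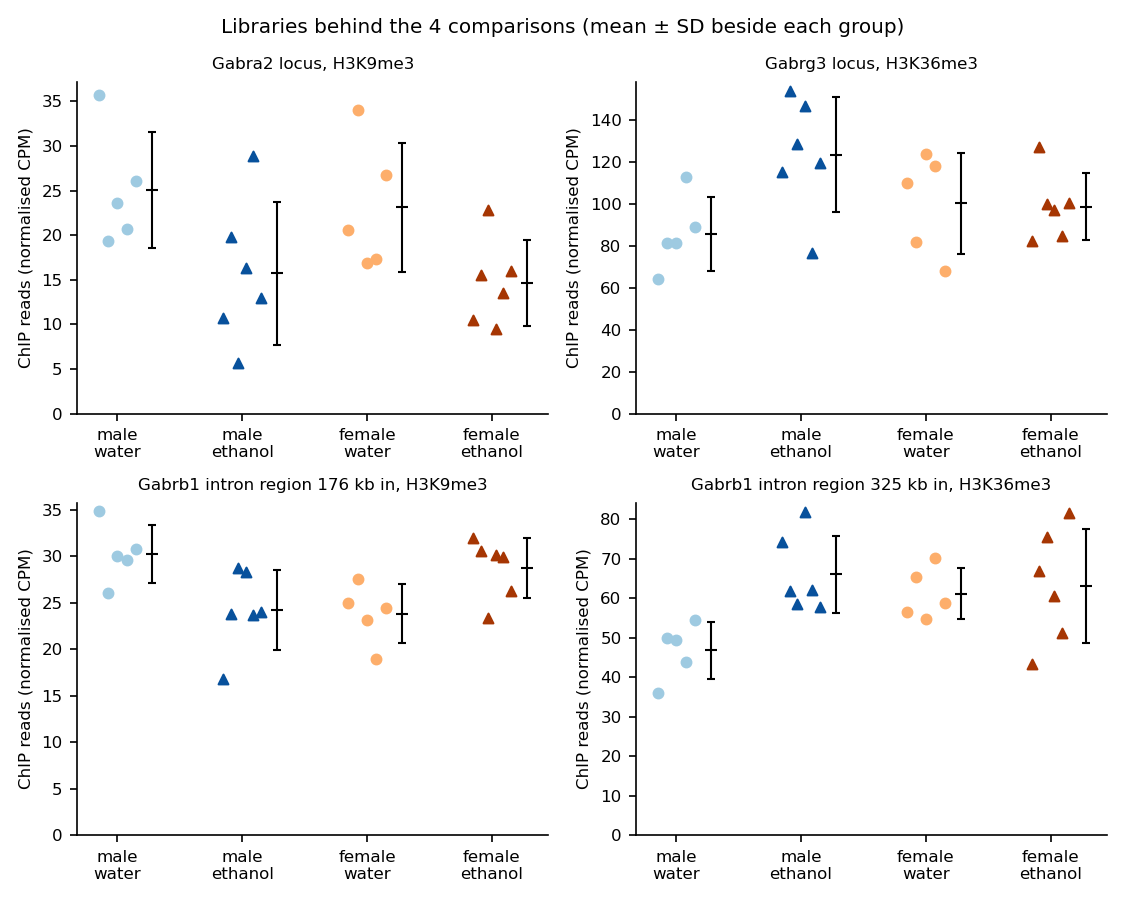
Normalised CPM (vertical axis) in every library with the group mean ± SD, for the Gabra2 locus in H3K9me3, the Gabrg3 locus in H3K36me3, the Gabrb1 region at 176 kb in H3K9me3 and the Gabrb1 region at 325 kb in H3K36me3. CPM are per M locus reads for the loci and per M region reads for the regions, and are not comparable between them. Only the last, in males, shows ethanol pools (57.7 to 81.9) all above the water pools (35.9 to 54.6).

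In no other tested member region did the groups separate, with 0 of 19 H3K9me3 regions in males and 0 of 20 in females (0.368% and 0.382% of all regions did) and 0 of 10 H3K36me3 regions in females (0.466%).

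Islands that were present in some pools only were compared by a two-sided Fisher's exact test of pools with and without an island. For H3K9me3, 0 of 18 member islands passed the unadjusted threshold in males, beside 0.703% of all islands tested, and 0 of 10 in females, beside 1.46%. For H3K36me3 the counts were 0 of 18 in males, beside 1.99%, and 0 of 23 in females, beside 0.508%. Over all listed islands, the smallest p among members was 0.0606 by Fisher's exact test. It was reached upstream of Gabrg1 (chr5:70845201-70848400), with an H3K9me3 island in 4 of 6 ethanol and 0 of 5 water pools of females. It was also reached in Gabrb1 (chr5:71816601-71821400), with an H3K36me3 island in 0 of 6 ethanol and 3 of 5 water pools of males. With islands at a false discovery rate of at most 0.01 the smallest value was the same. In females it was reached for H3K9me3 at that Gabrg1 island and at Gabra5 (0 of 6 ethanol and 3 of 5 water pools). In males it was reached for H3K36me3 at Gabrb1 (chr5:71693401-71696800, 0 of 6 and 3 of 5) and Gabrg3 (chr7:56952401-56958400, 4 of 6 and 0 of 5).

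The other genes of inhibitory transmission were read from the same fits. Of 13 other GABA-A subunit genes, 9 were tested in males and 9 in females for H3K9me3 with 0 past the unadjusted threshold, and for H3K36me3 1 of 9 passed in males, beside 4.82% of all loci, and 0 of 10 passed in females, beside 0.812%. That gene was Gabra3, for the alpha 3 subunit, whose locus had 32.0, 46.9 and 53.6 CPM as lowest, median and highest in water pools and 51.2, 81.9 and 135 in ethanol pools (0.98 ± 0.29, adjusted p = 0.837, edgeR). The groups overlapped slightly, and the input reads changed by 0.82. Of 4 other glycine receptor subunit genes 3 were tested, and Glra2 passed for H3K9me3 in females, beside 3.48% of loci (0.28 ± 0.09, adjusted p = 1.00, edgeR). Its input reads changed by 0.22. Both Gabra3 and Glra2 lie on the X chromosome. Of 17 genes for synthesis, transport and scaffold, 8 and 10 were tested for H3K9me3 in males and females and 13 and 15 for H3K36me3. Of these, 0 passed in males for H3K9me3 and 0 in either sex for H3K36me3. The median H3K36me3 change in males was 0.24 for the other GABA-A subunits and -0.79 for the synthesis, transport and scaffold genes, beside -0.39 over all loci.

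Levels over the 22 libraries were compared by Pearson's r of log CPM. This r depends also on features that differ between libraries and bear on many loci at once, such as depth and the number of islands called. For each member the locus that followed it most closely was named, among loci on other chromosomes only. For H3K9me3 these were 1700034E13Rik for Gabra2 (r = 0.80), Olfr460 for Gabra5 (0.66), Igf1r for Gabrb1 (0.67), Cc2d2b for Gabrg1 (0.70), Gfra1 for Gabrg3 (0.76) and Nkain2 for Glra3 (0.76). The value that 1% of loci exceed was 0.45 to 0.59 for these genes. For H3K36me3 they were Mink1 for Gabra2 (0.88), Phf14 for Gabra5 (0.73), Trove2 for Gabrb1 (0.70), Pygl for Gabrb2 (0.82), Npsr1 for Gabrg1 (0.82), Pde4d for Gabrg3 (0.89) and Catsperb for Glra3 (0.87). Members on the same chromosome could not be matched in this way. Among members on different chromosomes, none was the closest match of another.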

How the data were processed

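The deposited lists, 44 in all, hold SICER islands, called by the authors in windows of 200 bp with gaps of 400 bp (H3K9me3) or 600 bp (H3K36me3) after alignment to GRCm38 with Bowtie2 2.4.1. Per the labels and the study's methods, 8 immunoprecipitations were combined per library, and blacklisted regions and reads mapping to several locations were removed for H3K9me3; how this was done for H3K36me3 is not given in the sources used here. The deposited ChIP and input read counts are raw counts per island. The deposited p-value and q-value (false discovery rate) and the fold ratio of ChIP over scaled input come from the authors' caller. The 22 input samples enter through the input counts.

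Counts were summed over each locus, an island that crosses its edge being apportioned by length, or over each region, and tested across all loci or regions with edgeR 4.0.16 (quasi-likelihood, filterByExpr, TMM, Benjamini-Hochberg adjustment) in R 4.3.3; the scripts were tested on simulated data. Ratios used limma 3.58.1 on log2 of ChIP over input reads with 1 read added to each, and DESeq2 1.42.0, other filters, island sets and left-out libraries were tried as alternatives. Depth limits precision: H3K9me3 counts per member locus ranged from 49 to 2447 outside Gabrb2, and H3K36me3 counts from 0 to 1215. The members are named always, other genes and regions where the unadjusted p was at most 0.05. A result for the synthesis, transport and scaffold genes in females (H3K9me3) is not reported here. The members and gene lists were chosen with earlier results of these data known.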

Additional observations from a re-analysis of the deposited data

Results flagged for a closer look

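In 5 of 53 groups of island length per locus, a single library stood apart from its group. Chance alone gives such a gap in about 1 group in 20 where values are spread normally, and this rate does not apply to the Gabrb2 groups, in which 1 island among zeros is enough. At Gabra2, female ethanol pool 3 had 8.4 kb of H3K9me3 islands and the other female ethanol pools 2.4 to 4.2 kb. At Gabrb1, female water pool 5 had 20.0 kb of H3K9me3 islands, the others 12.6 to 14.6 kb, and female ethanol pool 5 had 24.4 kb of H3K36me3 islands, the others 11.8 to 16.4 kb. At Gabrb2, a single library of the group held an island at all, 1.8 kb of H3K9me3 in female water pool 5 and 1.6 kb of H3K36me3 in male ethanol pool 5, with 0 in the others.

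At the Gabrb1 region starting at position 71832801 of chromosome 5, the change with ethanol had opposite signs in the sexes, and the region was tested for the difference after those signs were seen. The test passed the unadjusted threshold alone, as 3.62% of all H3K9me3 and 5.92% of all H3K36me3 regions did, and no difference was shown after adjustment. The difference, female minus male, was 0.58 on the log2 scale for H3K9me3 (adjusted p = 1.00, edgeR) and -0.51 for H3K36me3 (adjusted p = 0.819, edgeR). The former stayed past the unadjusted threshold of 0.05 with each library left out in turn, and the latter did not.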

How the results depend on the processing

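Counts of members past the unadjusted threshold moved with the processing; adjusted calls of members stayed at 0. For H3K9me3 loci, the male count of 0 became 1 with DESeq2, the female count of 1 became 2 with no low-count filter and 0 with islands at a false discovery rate of at most 0.01, with the ChIP over input ratio and with the study's library totals, and the count of 1 for both sexes became 0 with the rate and the ratio. The male H3K36me3 count of 1 became 0 with DESeq2, with no filter, with the rate and with the ratio. For regions, the H3K9me3 count in males (1) became 2 with DESeq2 and 0 with the rate, and that in females (2) became 0 with the rate. The rate left fewer H3K9me3 member regions to test in both sexes, and the Gabrg3 region called in females was not among them. The H3K36me3 count in females became 1 with DESeq2, while the rate left no H3K36me3 member region to test. Leaving out each library gave H3K9me3 locus counts of 0 to 1 in males, 0 to 2 in females and 1 to 2 in both sexes, and region counts of 0 to 3 in males, 1 to 2 in females and 1 to 2 for the interaction. For H3K36me3 they were 0 to 1, 0 to 0 and 0 to 0, and 1 to 2, 0 to 1 and 0 to 2. Replicate numbers did not pair the pools (same-numbered correlations -0.363 to 0.114); with a replicate block the region counts were 0 in males and 1 in females for H3K9me3 and 2 in males for H3K36me3. Over gene bodies alone Gabra2 in females (-0.64) and Gabrg3 in males (0.35, H3K36me3) lost the unadjusted threshold. Gabra2 in females reversed to 0.0325 as a ratio. At a rate of 0.01, H3K9me3 covered 0.845% of Gabra2, 2.79% of Gabrg3, 8.07% of Gabrg1 and 7.99% of Glra3, and H3K36me3 0.572% of Gabra2, 0.472% of Gabra5, 1.34% of Gabrb1, 2.67% of Gabrg1, 0.753% of Gabrg3 and 1.5% of Glra3. The cause of these shifts was not tested. Over all loci the male H3K36me3 count at the unadjusted threshold was 857, 79 to 2495 under the alternatives and 531 to 1884 with a library left out. The count at an adjusted p of 0.05 was 0, and became 376 without male ethanol pool 5, 40 with DESeq2, 12 as a ratio and 1 with the rate.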
